A study of Mus musculus with 18 samples.

Results

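The miR-30 family comprises 5 mature miRNAs in the mouse that carry the family name on their 5p strand, mmu-miR-30a-5p, mmu-miR-30b-5p, mmu-miR-30c-5p, mmu-miR-30d-5p and mmu-miR-30e-5p. They were chosen by name, and all 5 were present among 1978 mature miRNAs in a table of 203513 features, of which 1054 miRNAs and 86922 features had at least 1 count. Small RNA was sequenced from brain cells of 10-month-old mice of 2 genotypes, wild type (WT) and homozygous Atxn2-CAG100-KIN (KIN), in which an expanded CAG repeat was placed into the mouse gene Atxn2 to model spinocerebellar ataxia type 2. No mouse received a treatment. Per the study's methods, the mice were of the C57BL/6 strain, and 3 fractions were taken in sequence from a dissociated brain with magnetic beads: microglia by CD11b, astrocytes by ACSA-2, and neurons as the cells left in the flow-through. The mice were same-sex littermate pairs of WT and KIN, 2 of them male and 1 female. The 18 libraries formed 6 groups of 3, and which libraries came from the same brain or pair is not given in the labels.

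A miRNA is cut by Drosha and then Dicer from a hairpin transcript, and 1 strand of the duplex is loaded into an Argonaute protein. Pairing with a target mRNA starts from the seed, bases 2 to 8 of the mature strand, so that miRNAs with a shared seed can act on overlapping targets. The miR-30 family is abundant in brain and many other tissues, and is known for repressing, among others, Becn1 in autophagy, Snai1 in epithelial to mesenchymal transition and Bdnf in neurons.

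The mature strands are shown to make the shared seed and the single-base differences visible. Bases 2 to 8 stand in capitals, and the letters are those of the deposited table, 5′ to 3′.
mmu-miR-30a-5p: tGTAAACAtcctcgactggaag
mmu-miR-30e-5p: tGTAAACAtccttgactggaag
mmu-miR-30c-5p: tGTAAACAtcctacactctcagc
mmu-miR-384-5p: tGTAAACAattcctaggcaatgt

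The seed GTAAACA was held by 6 of the 1978 mature miRNAs, namely the 5 members and mmu-miR-384-5p, which carries another name. mmu-miR-30a-5p differed by 1 base from mmu-miR-30e-5p and by 1 base from mmu-miR-30d-5p, while mmu-miR-30c-5p differed by 5 bases from mmu-miR-30a-5p over the shared length. Under the alignment settings of the authors, a full-length read of mmu-miR-30a-5p could also have been placed on mmu-miR-30d-5p or mmu-miR-30e-5p, though with a lower score than on its own sequence. A sequencing error at the differing base could therefore move a read between mmu-miR-30a-5p and mmu-miR-30d-5p, or between mmu-miR-30a-5p and mmu-miR-30e-5p. mmu-miR-30d-5p and mmu-miR-30e-5p differed from each other by 2 bases, and neither could be placed on the other. The separate counts of these 3 members are less certain than their sum. No such placement was open to full-length reads of mmu-miR-30b-5p or mmu-miR-30c-5p on another member.

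The members come from 6 hairpin genes in 3 pairs of neighbours, since mmu-miR-30c-5p is made from 2 loci. Positions are those of the mouse build GRCm39. Mir30a (chr1:23311350-23311420, + strand) and Mir30c-2 (chr1:23330782-23330865, + strand) were separated by 19361 bases. Mir30e (chr4:120629803-120629894, − strand) and Mir30c-1 (chr4:120626731-120626819, − strand) were separated by 2983 bases, both in an intron of Nfyc on the same strand, a gene for a subunit of the transcription factor NF-Y. Mir30b (chr15:68209264-68209359, − strand) and Mir30d (chr15:68213057-68213138, − strand) were separated by 3697 bases. Mir30c-2 overlapped an exon of the lncRNA Gm27028 and Mir30d an exon of the lncRNA Gm20732. Mir384 lies on the X chromosome (chrX:104387888-104387975, − strand) in an intron of the lncRNA 5330434G04Rik.

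The hairpins of Mir30a, Mir30e, Mir30c-1 and Mir30c-2 are given because their 2 arms were both counted and because the last pair share 1 mature 5p strand. They are from RefSeq (GRCm38.p6), 5′ to 3′, with the 5p and 3p mature strands in capitals.
Mir30a: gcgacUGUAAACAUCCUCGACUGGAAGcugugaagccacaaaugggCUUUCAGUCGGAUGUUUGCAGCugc
Mir30e: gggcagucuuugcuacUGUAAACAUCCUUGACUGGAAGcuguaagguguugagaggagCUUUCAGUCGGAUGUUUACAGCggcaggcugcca
Mir30c-1: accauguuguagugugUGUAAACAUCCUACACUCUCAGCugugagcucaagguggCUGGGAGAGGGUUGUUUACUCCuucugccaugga
Mir30c-2: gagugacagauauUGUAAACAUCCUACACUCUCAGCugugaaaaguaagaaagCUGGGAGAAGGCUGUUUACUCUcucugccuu

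The libraries held between 1211118 counts (WT neurons replicate 1) and 4316748 counts (KIN microglia replicate 2). Mature miRNA took 5.05% to 10.3% of the counts in the glial libraries and 0.964% to 2.13% in the neuronal libraries. The fractions were checked with miRNAs typical of cell types. The summed myeloid miRNAs (both strands of miR-142a and miR-223) made up 5.29% to 7.00% of mature miRNA in microglia libraries and 0.0151% to 0.0531% in astrocyte libraries. In the fraction labelled neurons they made up 0.445% to 1.32% in WT and 1.08% to 2.36% in KIN. The 7 neuronal miRNAs, which include miR-124, miR-128, miR-138 and miR-132, were not highest in the fraction labelled neurons. They summed to 66.1 to 269 counts per 1000000 counts of the library (CPM) there, against 1085 to 3286 CPM in astrocytes, and to 0.685% to 1.39% against 1.29% to 3.96% of mature miRNA. In microglia they made up 0.0738% to 0.360% of mature miRNA, less than in each library labelled neurons. The study describes its neuron population as mostly pure by marker mRNAs, which were not examined here. Because the neuronal miRNAs were higher in astrocytes, the name neurons is used below only as the label of this fraction. The neural lineage miRNA miR-9 (both strands) made up 10.0% to 13.8% of mature miRNA in WT and 17.0% to 19.2% in KIN there, 11.3% to 11.6% in WT and 7.04% to 8.22% in KIN astrocytes, and at most 0.408% in microglia. The oligodendrocyte list made up 3.68% to 3.82% of mature miRNA in WT and 3.88% to 5.19% in KIN astrocytes, and at most 0.635% in the other fractions. The endothelial, mural, erythroid and choroid plexus lists each made up at most 1.57% of mature miRNA in any library. In WT neurons, replicate 2 held 1.93% mature miRNA against 0.964% and 1.08% in the other 2 libraries.

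The family was abundant in each fraction. Summed over its 5 members the share of mature miRNA was 6.10% ± 0.73 in WT and 6.81% ± 0.14 in KIN astrocytes (mean and SD over 3 libraries, here and below). It took 5.82% ± 0.41 and 4.65% ± 0.29 in WT and KIN microglia, and 6.32% ± 1.05 and 4.99% ± 0.40 in WT and KIN neurons. Counted as 1 miRNA, the family ranked 3rd in WT and KIN astrocytes and in WT microglia, and 4th in the remaining 3 groups, among 1050 miRNAs with counts. mmu-miR-30c-5p was the most abundant member in each of the 18 libraries, with a rank by mean level between 8 and 23. The other 4 members ranked between 20 and 37. The summed family gave 643 counts in the thinnest library, WT neurons replicate 1, and 23694 in the richest, KIN astrocytes replicate 1.

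Relative to the library total, the neuronal libraries held far less of each member than the glial ones. mmu-miR-30c-5p stood at 1039, 2006 and 1224 CPM in WT astrocytes, at 1000.2, 1162 and 1418 CPM in WT microglia, and at 197, 784 and 333 CPM in WT neurons. mmu-miR-30d-5p stood at 668, 1162 and 757 CPM in WT astrocytes, at 546, 504 and 613 CPM in WT microglia, and at 113, 164 and 77.2 CPM in WT neurons. For both members all 3 WT neuronal libraries were below all 6 WT glial libraries, and replicate 2 was the highest of its group in astrocytes and, for both, in neurons. In KIN the order was the same, with mmu-miR-30c-5p at 2033 to 2555 CPM in astrocytes, 1047 to 1183 in microglia and 316 to 560.2 in neurons.

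**Figure D1:**
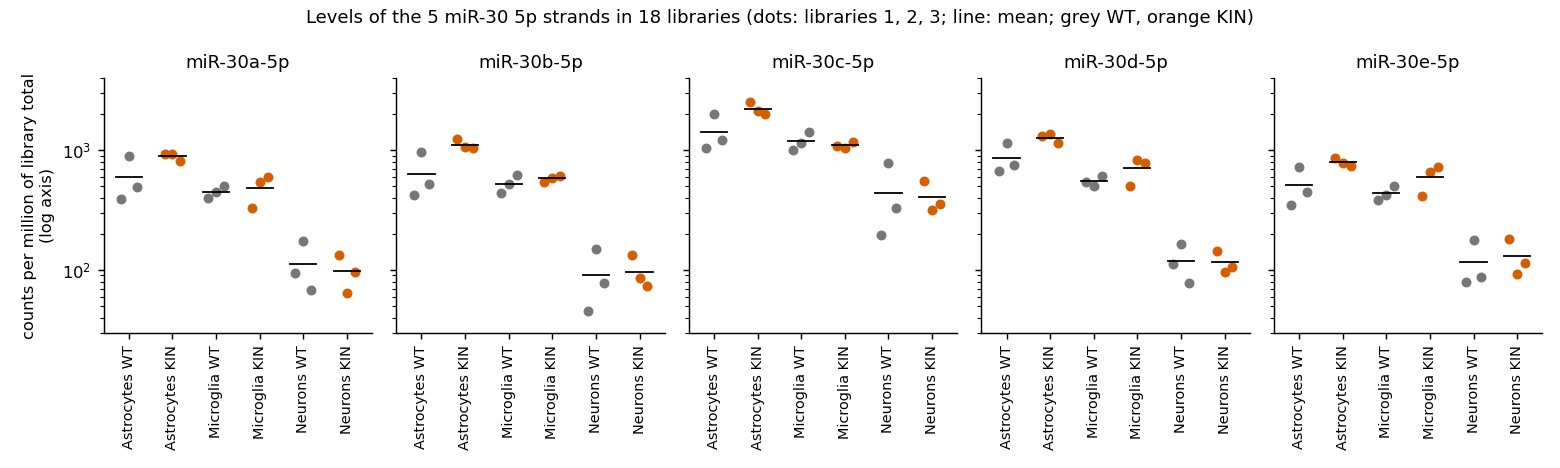
Level of each of the 5 miR-30 5p strands in the 18 libraries, in counts per 1000000 counts of the library (CPM) on a log axis. Dots are libraries 1, 2 and 3 of a group from left to right (grey WT, orange KIN) and lines are means. Neuronal libraries lie below the glial ones for each member, and the WT astrocyte library of replicate 2 lies near the KIN astrocytes, for example at 2006 CPM of mmu-miR-30c-5p.

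Between WT neurons and WT astrocytes all 5 members passed the test (edgeR's quasi-likelihood test, adjusted p of at most 0.05 over all features and a log2 fold change of at least 1 in size), where 28.7% of 5916 tested features did. The log2 fold change was −3.08 ± 0.41 (SE, adjusted p 0.00205) for mmu-miR-30d-5p and −1.91 ± 0.53 (adjusted p 0.0301) for mmu-miR-30c-5p, the ends of the range. All 5 also passed between WT neurons and WT microglia, from −2.74 ± 0.46 (edgeR adjusted p 0.00221) for mmu-miR-30b-5p to −1.65 ± 0.46 (adjusted p 0.0251) for mmu-miR-30c-5p, where 28% of 5166 features passed. In KIN all 5 passed between neurons and astrocytes (−3.77 to −2.71, with 46.3% of 5001 features) and between neurons and microglia (−3.08 to −1.91, with 53% of 4880 features).

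Most of mature miRNA was lower in the neuronal libraries, and mmu-miR-30c-5p and mmu-miR-30e-5p lay above its median in all 4 comparisons. mmu-miR-30b-5p lay below it in 3 of them, and all 5 members lay above it between KIN neurons and KIN microglia. The median over tested mature miRNAs was −2.66 between WT neurons and WT astrocytes (362 miRNAs), −2.56 between WT neurons and WT microglia (343), and −3.43 and −3.09 for the same pairs in KIN (397 and 360). When the libraries were scaled by their mature miRNAs in place of all features, 0 of 5 members passed in each of the 4 comparisons (3 kept an adjusted p under the limit between KIN neurons and KIN astrocytes), and the fold changes lay between −0.77 and 0.51. Against the total of mature miRNA, the mean family level in WT neurons was 1.04 times that in WT astrocytes, whereas it was 0.217 times against the library total. Between KIN neurons and KIN astrocytes the same ratios were 0.733 and 0.134. Fewer cells of a type and less RNA per cell cannot be told apart in such bulk libraries. Per the study, the neuronal fraction also yielded far fewer cells and less RNA than the glial fractions. The part of this lower input in these values was not tested. The call of mmu-miR-30c-5p between the WT fractions was lost when any of several libraries was left out. Against astrocytes these were WT astrocytes replicate 2 (log2 fold change −1.38, edgeR adjusted p 0.098), WT astrocytes replicate 3 (−1.99, 0.0633), WT neurons replicate 1 (−1.48, 0.069) and WT neurons replicate 3 (−1.61, 0.0848). Against microglia they were WT microglia replicate 2 (−1.58, 0.06), WT microglia replicate 3 (−1.65, 0.0814) and WT neurons replicate 3 (−1.48, 0.101).

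**Figure D2:**
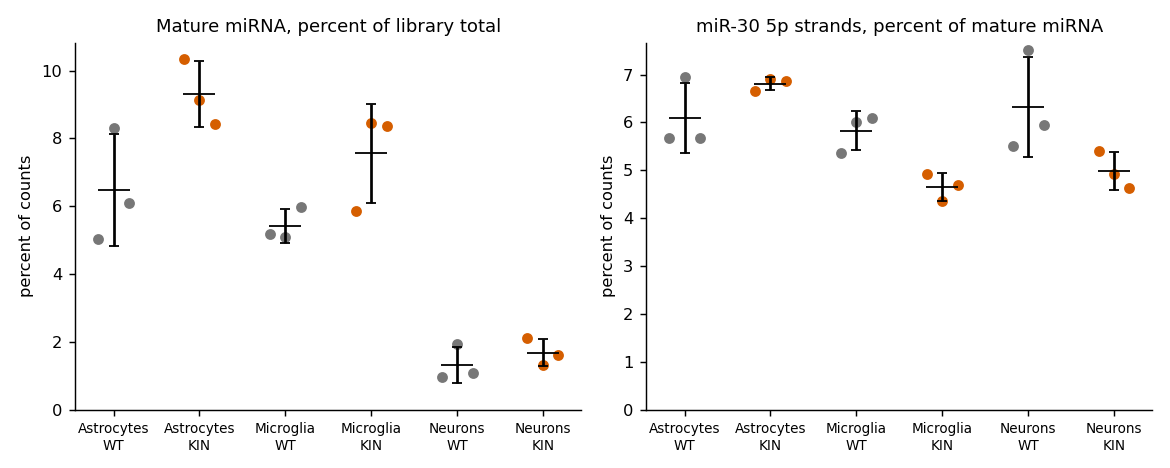
Mature miRNA as a percent of the library total (left) and the 5 miR-30 5p strands as a percent of mature miRNA (right), both as percent of counts. Dots are libraries (grey WT, orange KIN), with mean and SD. Mature miRNA was scarce in the neuronal libraries (0.964% to 2.13%), while the family's share of it there (4.63% to 7.51%) overlapped the glial range (4.35% to 6.94%).

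No member was called different between astrocytes and microglia. Between WT microglia and WT astrocytes 0 of 5 members passed (edgeR and DESeq2 alike), with log2 fold changes from −0.54 to −0.13, where 31.5% of 6397 features passed. An unadjusted p under 0.05 was found for 0 of 5 members and for 2901 of the 6397 features (edgeR). Without WT astrocytes replicate 2 the values ran from −0.04 to 0.49, and with scaling by mature miRNA from −0.31 to 0.13, so no direction can be given. In KIN, microglia held less of 4 members than astrocytes at an adjusted p under the threshold but at less than the required size. Both limits were passed by 0 of 5, in edgeR and in DESeq2, where 35.3% of 4570 features passed in edgeR. An unadjusted p under 0.05 was found for 4 of 5 members and for 2289 of the 4570 features (edgeR). The largest of the members' differences was −0.87 ± 0.16 (edgeR adjusted p 0.000845) for mmu-miR-30c-5p and the smallest was −0.28 ± 0.19 (adjusted p 0.268) for mmu-miR-30e-5p. With scaling by mature miRNA they shrank to between −0.53 and 0.03, and 0 members had an adjusted p under the threshold, as was also the case in a fit of all 18 libraries.

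The design's question is the difference between KIN and WT within each fraction. In astrocytes each member was higher in KIN by a log2 fold change of 0.69 to 0.91 on the scale of all features, but none passed the test. mmu-miR-30b-5p stood at 422, 965 and 523 CPM in WT and at 1235, 1063 and 1038 CPM in KIN. mmu-miR-30e-5p stood at 352, 728 and 450.2 CPM in WT and at 862, 789 and 745 CPM in KIN. The groups did not overlap for either member or for mmu-miR-30c-5p, and they overlapped for mmu-miR-30a-5p and mmu-miR-30d-5p. How many other features did not overlap was not counted, and 346 of 418 tested mature miRNAs were higher in KIN. WT replicate 2 lay closer to the KIN libraries than to the other 2 WT libraries for each member.

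The log2 fold change in astrocytes was 0.91 ± 0.27 for mmu-miR-30b-5p (edgeR adjusted p 0.0538), 0.77 ± 0.23 for mmu-miR-30c-5p (0.0535), 0.76 ± 0.24 for mmu-miR-30e-5p (0.063), 0.70 ± 0.27 for mmu-miR-30a-5p (0.104) and 0.69 ± 0.20 for mmu-miR-30d-5p (0.0538). So 0 of 5 passed, against 8.18% of 5694 tested features. An unadjusted p under 0.05 was found for 5 of 5 members and for 1955 of the 5694 features (edgeR). In DESeq2 0 of 5 passed, with 4 of 5 under the adjusted p limit. The result turned on WT replicate 2, which had the highest share of mature miRNA (8.30%) and the highest level of neuronal miRNAs (3286 CPM) of its group. Without it, 4 of 5 members passed and all 5 had an adjusted p under the limit, with log2 fold changes from 0.98 (mmu-miR-30d-5p) to 1.37 (mmu-miR-30b-5p). Among all features 1527 passed without it, against 466 with all libraries. The median over 418 tested mature miRNAs was 0.58 against −0.19 over all features, and with scaling by mature miRNA the members' values lay between 0.07 and 0.34. Other measures moved with genotype in this fraction. Mature miRNA took 5.05% to 8.30% of the library in WT and 8.43% to 10.3% in KIN, and the 4 summed oligodendrocyte miRNAs (miR-219a and miR-338) ran from 1860.4 to 3173 CPM in WT and from 3540 to 5367 CPM in KIN. The 4 summed myeloid miRNAs ran from 10.2 to 12.6 CPM in WT and from 25.0 to 48.5 CPM in KIN, with miR-223-5p at 0 in both groups. As a percent of mature miRNA, 2 of the 8 marker lists (these 2) were higher in each KIN library than in each WT library, and 5 were lower. The lower ones were miR-9 (11.3% to 11.6% in WT and 7.04% to 8.22% in KIN), the neuronal (2.51% to 3.96% and 1.29% to 2.02%), endothelial (0.678% to 0.729% and 0.260% to 0.447%), mural (0.378% to 0.465% and 0.288% to 0.347%) and choroid plexus lists (0.832% to 1.01% and 0.458% to 0.670%). Their part in the members' values was not tested.

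In microglia no member passed the test between KIN and WT. mmu-miR-30e-5p stood at 387, 421 and 502 CPM in WT and at 417, 665 and 733 CPM in KIN, and mmu-miR-30c-5p at 1000.2, 1162 and 1418 CPM in WT and at 1086, 1047 and 1183 CPM in KIN. The KIN library of replicate 1 lay within the WT range for both, and the groups overlapped for all 5 members. The log2 fold change was 0.67 ± 0.23 (edgeR adjusted p 0.104) for mmu-miR-30e-5p, 0.57 ± 0.20 (0.117) for mmu-miR-30d-5p, 0.36 ± 0.20 (0.318) for mmu-miR-30b-5p, 0.32 ± 0.23 (0.453) for mmu-miR-30a-5p and 0.11 ± 0.21 (0.817) for mmu-miR-30c-5p. None of 5 passed in edgeR or DESeq2, where 4.35% of 4940 features passed in edgeR. An unadjusted p under 0.05 was found for 2 of 5 members and for 1250 of the 4940 features (edgeR). The sign of mmu-miR-30a-5p, mmu-miR-30b-5p and mmu-miR-30c-5p turned under scaling by mature miRNA. The median over 382 mature miRNAs was 0.46, against −0.11 over all features.

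As a share of mature miRNA the family was lower in KIN microglia. It took 5.36%, 6.01% and 6.10% in the WT libraries and 4.92%, 4.35% and 4.69% in the KIN libraries without overlap, while mature miRNA as a whole took a mean of 7.56% of KIN and 5.42% of WT libraries. On this scale mmu-miR-30a-5p, mmu-miR-30c-5p and mmu-miR-30d-5p were lower in each KIN library than in each WT library, and mmu-miR-30b-5p and mmu-miR-30e-5p overlapped. How many other mature miRNAs did not overlap on this scale was not counted. In the test with scaling by mature miRNA, the members' log2 fold changes in microglia lay on both sides of no change, between −0.29 and 0.24. No member passed there (edgeR adjusted p from 0.413), so a fall of the family relative to other miRNAs was not shown. Per 1000000 counts of mature miRNA, mmu-miR-30c-5p stood at 19342, 22856 and 23667 in WT and at 18534, 12388 and 14153 in KIN, whereas mmu-miR-30e-5p stood at 7491, 8289 and 8373 in WT and at 7121, 7861 and 8767 in KIN. In the same libraries 5 of 8 marker lists took a lower percent of mature miRNA in each KIN library than in each WT library. These were the endothelial (0.416% to 0.522% in WT and 0.202% to 0.282% in KIN), mural (0.282% to 0.404% and 0.102% to 0.164%), neuronal (0.136% to 0.360% and 0.0738% to 0.0927%) and oligodendrocyte lists (0.0623% to 0.0685% and 0.0553% to 0.0575%) and miR-9 (0.162% to 0.408% and 0.0719% to 0.101%). The erythroid list was higher (0.0334% to 0.0436% and 0.0440% to 0.155%). In neurons the family share was likewise lower in KIN, at 5.41%, 4.93% and 4.63% against 5.51%, 7.51% and 5.95% in WT, and the closest libraries of the 2 groups were nearly equal. There miR-9 was higher in each KIN library (10.0% to 13.8% in WT and 17.0% to 19.2% in KIN) and the erythroid list lower (0.617% to 1.57% and 0.298% to 0.361%), and the other 6 lists overlapped. These shares were described without a test, and the part of the markers in them was not tested.

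In neurons no difference between genotypes was detectable. mmu-miR-30c-5p stood at 197, 784 and 333 CPM in WT and at 560.2, 316 and 353 CPM in KIN, and the other members overlapped in the same way. The log2 fold changes lay between −0.22 (mmu-miR-30a-5p) and 0.16 (mmu-miR-30e-5p), with SEs of 0.37 to 0.45 and edgeR adjusted p from 0.947 to 0.994. None of 5 members passed, none had an unadjusted p under 0.05, and 0% of 4535 features passed in edgeR and 0 in DESeq2, with 197 features at an unadjusted p under 0.05. The spread among the WT libraries limits what could be seen.

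The difference between fractions in the effect of genotype was tested over all 18 libraries. For microglia against astrocytes the members' values lay between −0.68 and −0.09 (edgeR adjusted p from 0.902), where 0.146% of 8204 features passed. For neurons against astrocytes they lay between −0.80 and −0.49 (adjusted p from 0.674), where 0% passed. For neurons against microglia they lay between −0.48 and −0.09 (adjusted p from 0.692), where 1.23% passed. None of 5 members passed in any of these, in edgeR or in DESeq2. None had an unadjusted p under 0.05 in edgeR, where 594, 749 and 998 of 8204 features did, in this order. So the larger values in astrocytes were not shown to differ from those in the other fractions.

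**Figure D3:**
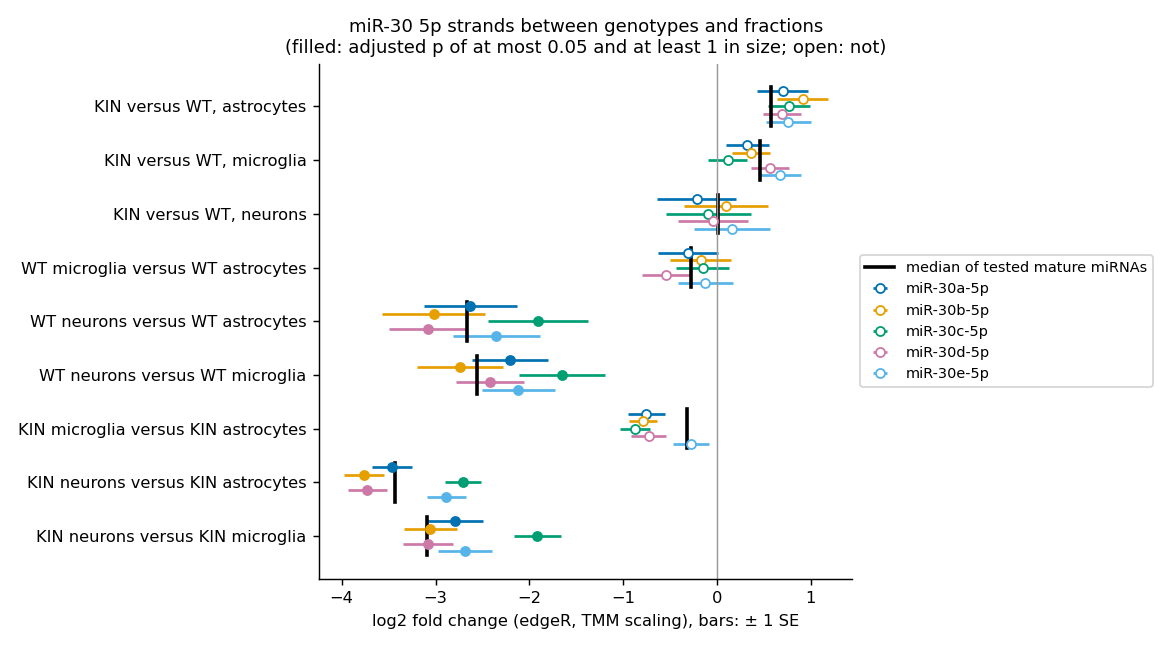
Log2 fold change of each member (edgeR, scaled over all features) between genotypes within a fraction and between fractions within a genotype, with bars of 1 SE. Filled points passed the test and open points did not, and a black line marks the median of the tested mature miRNAs of that comparison. The members lie on both sides of this median between WT neurons and WT astrocytes (−3.08 to −1.91 with a median of −2.66), and all 5 lie above it between KIN neurons and KIN microglia (−3.08 to −1.91 with a median of −3.09).

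The make-up of the family was described by each member's share of the summed counts, without a test. mmu-miR-30c-5p took 35.5% ± 0.70 of the family in WT astrocytes, 37.6% ± 1.39 in WT microglia and 47.6% ± 9.15 in WT neurons. In KIN these shares were 35.4% ± 1.61, 32.1% ± 4.89 and 48.1% ± 0.55. WT neurons replicate 1, with 643 family counts, stood apart at 37.2%, against 54.1% and 51.7% in the other WT neuronal libraries and 47.5% to 48.6% in KIN. The share of mmu-miR-30b-5p was lower in all 6 neuronal libraries (8.55% to 13.1%) than in all 12 glial ones (14.7% to 18.8%).

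Within astrocytes the shares overlapped between genotypes for 4 of 5 members, for example mmu-miR-30e-5p at 12.6% ± 0.39 in WT and 12.6% ± 0.21 in KIN. mmu-miR-30b-5p was the exception, at 14.7%, 16.7% and 15.2% in WT and 17.9%, 16.8% and 17.9% in KIN, where the closest libraries were nearly equal. In microglia, mmu-miR-30e-5p took 14.0%, 13.8% and 13.7% of the family in WT and 14.5%, 18.1% and 18.7% in KIN. mmu-miR-30c-5p took 36.1%, 38.0% and 38.8% in WT and 37.7%, 28.5% and 30.2% in KIN. KIN replicates 2 and 3 lay outside the WT range for both members, and KIN replicate 1 lay within or close to it. Per 100 counts of mmu-miR-30c-5p, mmu-miR-30e-5p gave 35.4 to 38.7 in WT microglia, 38.4 in KIN replicate 1, and 63.5 and 61.9 in KIN replicates 2 and 3. Although Mir30e and Mir30c-1 are neighbours, mmu-miR-30c-5p also comes from Mir30c-2, and the mature counts cannot be divided between these loci. Of 51 pairs of a ratio and a fraction that were examined in this way, 10 had no overlap between WT and KIN, and these ratios share counts with each other.

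**Figure D4:**
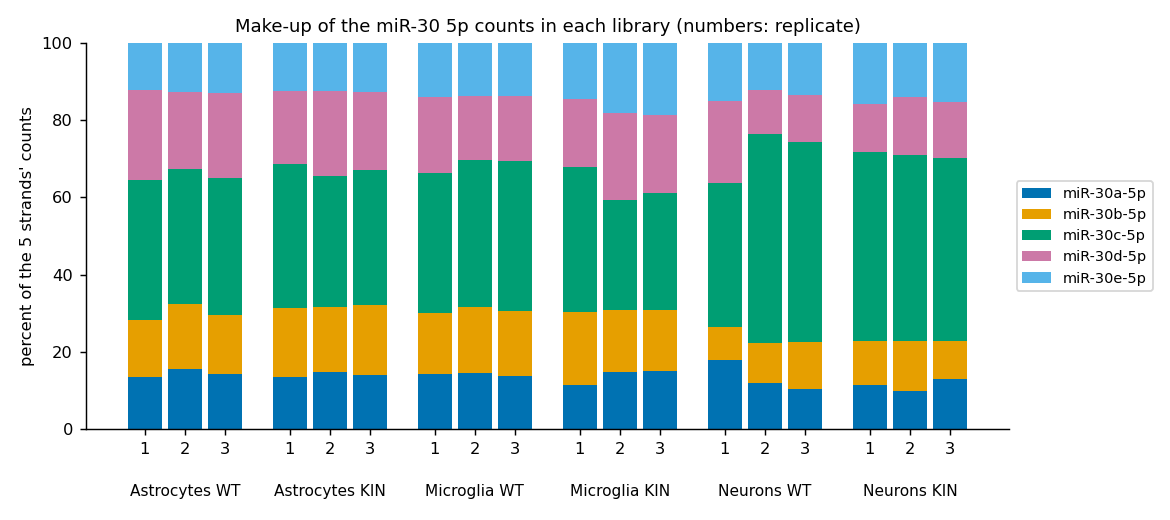
Make-up of the miR-30 5p counts in each library, in percent of the 5 strands' counts, with the replicate number under each bar. mmu-miR-30c-5p takes 28.5% to 38.8% in glial libraries and 37.2% to 54.1% in neuronal libraries, and KIN microglia replicates 2 and 3 hold more mmu-miR-30e-5p (18.1% and 18.7%) than the other glial libraries.

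The opposite strands of the same hairpins were minor, and they were rarer still in neurons. mmu-miR-30a-3p gave 12.5, 9.43 and 13.6 counts per 100 counts of mmu-miR-30a-5p in WT astrocytes and 13.2, 9.91 and 10.1 in WT microglia, but 0.87, 2.35 and 0 in WT neurons and 2.26, 4.46 and 3.86 in KIN neurons. All 6 neuronal libraries were below all 12 glial libraries, whose lowest value was 7.89. The neuronal values rest on 1, 8 and 0 counts in WT and 7, 7 and 9 in KIN. A count of 0 against 104 counts of mmu-miR-30a-5p allows up to 2.88 per 100, a limit that covers counting error only. mmu-miR-30e-3p gave 6.99 to 10.1 per 100 counts of mmu-miR-30e-5p in glia and 2.06 to 6.22 in neurons. mmu-miR-30a-3p and mmu-miR-30e-3p differ from each other by 1 base, so their separate counts are less certain than their sum.

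mmu-miR-30a-3p was lower in WT neurons than in WT astrocytes by a log2 value of −5.38 ± 0.81 (edgeR adjusted p 0.00303) against −2.63 ± 0.50 (0.00688) for mmu-miR-30a-5p, though the difference between the strands was not itself tested. Within glia, mmu-miR-30e-3p per 100 of mmu-miR-30e-5p was lower in each KIN library than in each WT library. In astrocytes it gave 9.11, 6.99 and 7.68 in KIN against 10.1, 9.88 and 9.17 in WT. In microglia it gave 7.61, 7.70 and 7.56 in KIN against 9.07, 8.20 and 9.67 in WT. In neurons this ratio overlapped between genotypes. The same ratios for mmu-miR-30a, mmu-miR-30b, mmu-miR-30d and the summed opposite strands of mmu-miR-30c overlapped between genotypes in both glial fractions. The opposite strands of mmu-miR-30b, mmu-miR-30c and mmu-miR-30d reached at most 0.72 per 100 of their 5p strand, and mmu-miR-30d-3p had 0 counts in the 6 neuronal libraries. Between KIN and WT, 0 of 6 opposite strands passed in astrocytes, 0 of 5 tested in microglia and 0 of 2 tested in neurons.

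**Figure D5:**
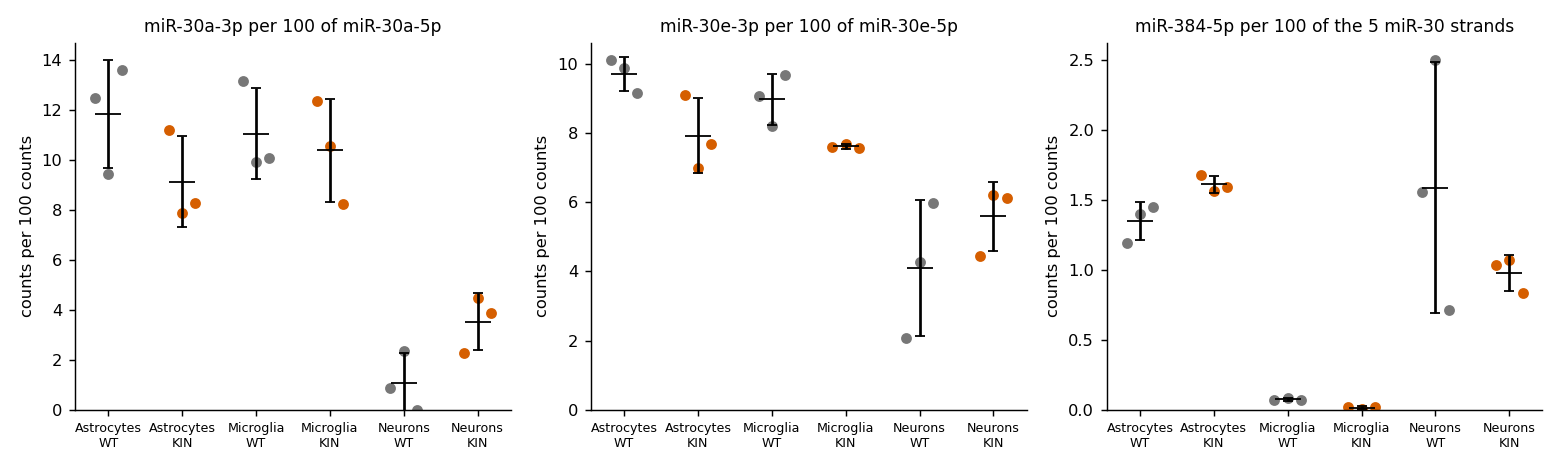
Counts of mmu-miR-30a-3p per 100 of mmu-miR-30a-5p, of mmu-miR-30e-3p per 100 of mmu-miR-30e-5p, and of mmu-miR-384-5p per 100 of the 5 miR-30 strands. Dots are libraries (grey WT, orange KIN), with mean and SD, and bars are cut at 0. Opposite strands are lowest in neurons (0 to 4.46 for mmu-miR-30a-3p), and mmu-miR-384-5p is near 0 in microglia (at most 0.0847).

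The hairpin genes were counted as well, since a read too long or with too many mismatches for the mature sequences went on to later rounds of alignment. The 6 hairpins gave 54.5 ± 0.70 counts per 100 family counts in WT astrocytes, 53.8 ± 0.71 in KIN astrocytes, 62.7 ± 2.25 in WT neurons and 60.3 ± 2.59 in KIN neurons. In microglia they gave 53.2 ± 0.91 in WT and 50.6 ± 0.95 in KIN, with each KIN library below each WT library. A read of at most 24 bases could pass on a mature strand of 22 bases. Longer or altered mature reads and fragments of the precursor cannot be told apart in these counts. Mir30c-1 and Mir30c-2 share reads, and Mir30e overlaps Mir30f on the other strand, so that counting without strand cannot separate that pair. Between KIN and WT 0 of 6 hairpins passed in each fraction (edgeR). All 6 passed as lower in WT neurons than in WT astrocytes, where 28.7% of 5916 features passed. Their log2 fold changes ran from −2.997 to −1.715, on both sides of the median of −2.66 over tested mature miRNAs. A fall of the hairpins beyond that of mature miRNA was therefore not shown.

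mmu-miR-384-5p shares the seed but had another distribution. It stood at 34.3, 80.6 and 50.1 CPM in WT astrocytes and at 116, 98.7 and 92.4 CPM in KIN astrocytes. It stood at 2.02, 2.59 and 2.45 CPM in WT microglia and at 0.635, 0.232 and 0.698 CPM in KIN microglia, which is 7 to 9 counts and 1 to 3 counts per library. Unlike the 5 members, it was lower in WT microglia than in WT astrocytes by a log2 value of −4.44 ± 0.47 (edgeR adjusted p 5.57e-05), and this call held with scaling by mature miRNA (−4.15). Between KIN and WT astrocytes its log2 fold change was 1.00 ± 0.29 (adjusted p 0.0524), which did not pass. Its hairpin Mir384 passed narrowly at 1.11 ± 0.30 (edgeR adjusted p 0.0412). Mir384 did not pass with scaling by mature miRNA (0.53), nor with library totals, where it lay just under the required size. Nor did it pass with a stricter filter (edgeR adjusted p 0.0516) or in a fit of all 18 libraries (0.229). It also did not pass when any of 5 of the 6 libraries was left out.

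Over the 18 libraries the 5 members moved closely together, with Pearson correlations from 0.941 to 0.990 between pairs on log2(CPM + 1). The libraries share their depth and their miRNA content, and the median correlation of 169 mature miRNAs with the summed family was 0.793. The 5 miRNAs most like the family were miR-101a-3p (0.989), miR-23b-3p (0.988), miR-99b-5p (0.985), miR-361-5p (0.979) and let-7a-5p (0.978).

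Genes of miRNA production and silencing and genes known as miR-30 targets were read only as short fragments of their transcripts. The 13 listed genes of production and silencing (such as Drosha, Dicer1 and the Argonautes Ago1 to Ago4) gave 1676 counts over the 18 libraries. Between KIN and WT 0 features passed of 7 tested in astrocytes, 8 in microglia and 4 in neurons, with medians of −0.39, 0.13 and −0.16 against −0.19, −0.11 and −0.11 over all features. Between KIN neurons and KIN astrocytes 1 of 7 tested features passed, against 46.3% of all features, namely one of Dgcr8, the RNA-binding partner of Drosha (1.12 ± 0.49, edgeR adjusted p 0.0481). No feature of this list passed in the other comparisons between fractions. The 14 listed targets gave 570 counts. Between KIN and WT 0 of 2 tested target features passed in astrocytes, 0 of 1 in microglia and 0 of 2 in neurons. Of the targets 2 features were tested in each of 3 comparisons in which 1 passed, against 31.5%, 35.3% and 46.3% of all features. This was Notch1, a receptor of cell fate decisions, which was lower in microglia than in astrocytes, with −1.81 ± 0.46 in WT (edgeR adjusted p 0.011) and −3.08 ± 0.52 in KIN (0.0005), and lower in KIN neurons than in KIN astrocytes (−1.67 ± 0.52, 0.0067). For the targets 0 of 2 passed between WT neurons and WT astrocytes or WT microglia, and between KIN neurons and KIN microglia. The shares of all features there were 28.7%, 28% and 53%, in this order. The host gene of Mir30c-1 and Mir30e, Nfyc, gave 25 counts in all and was not tested.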

How the data were processed

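Libraries were made by the study with a small RNA kit whose adapters carry molecular identifiers. Whether reads were collapsed by them is not given for these libraries in the sources used here. The deposited values are raw counts, which the authors made by trimming with Cutadapt 4.6 (reads of at least 20 bases), local alignment with Bowtie2 2.4.4 first to mature miRNA and then to tRNA, piRNA, noncoding and coding transcripts (mm39), and counting with HTSeq 2.0.2 without strand. The deposited table also holds the authors' fold changes and p-values and 36 per-library columns on other scales, none of which were used.

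Here, a feature entered a fit when 2 or more of its libraries had 5 or more counts, and was tested with edgeR 4.0.16 (R 4.3.3; quasi-likelihood, TMM, Benjamini-Hochberg over all features). Genotype or fraction was the only term, except that differences between fractions in the effect of genotype were contrasts of 6 group means over 18 libraries. In these fits and in those between fractions, libraries of the same mouse entered as independent. A pass needed an adjusted p no higher than 0.05 together with a log2 fold change of 1 or more in size. The code was tested on simulated data. CPM are counts per 1000000 counts of the library. SEs are the fold change divided by the root of the test's F statistic. Genes were named by a rule (the members, their opposite strands and hairpins, miRNAs with the seed, the host gene, 2 gene lists, and the 5 miRNAs most correlated with the family among those with a mean of at least 10 CPM). The members and lists were chosen with earlier results of these data known. Alternatives were DESeq2 1.42.0, other scalings and filters, other fits, and leaving out each library. Same-numbered libraries deviated together, with each correlation over 0.1, for WT microglia with WT astrocytes (0.157 to 0.425) and WT neurons with WT astrocytes (0.191 to 0.429), and not in the other pairs of groups. Per the study's methods the libraries came from 3 WT and 3 KIN mice, with the fractions of a mouse taken in sequence from 1 brain, so libraries of a group are separate mice. Which numbers mark a brain or a littermate pair is not given in the sources used here, and sex was not a term of any fit.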

Additional observations from a re-analysis of the deposited data

Results flagged for a closer look

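The share of mmu-miR-384-5p relative to the miR-30 family moved in opposite directions with genotype in 2 fractions. Per 100 counts of the 5 mmu-miR-30 strands, mmu-miR-384-5p had a mean of 1.35 in WT and 1.61 in KIN astrocytes, a difference (KIN minus WT) of 0.264, with all 3 KIN libraries above all 3 WT libraries. In microglia the means were 0.0749 in WT and 0.0154 in KIN, a difference of −0.0595, with all 3 KIN libraries below all 3 WT libraries. The microglial values rest on 7, 9 and 9 counts in WT and 2, 1 and 3 counts in KIN. In the same microglial libraries the summed neuronal miRNAs ran from 69.4 to 186 CPM in WT and from 54.3 to 66.5 CPM in KIN, and miR-9 from 82.3 to 245 CPM in WT and from 59.1 to 68.6 CPM in KIN, neither with overlap, and their part in the ratio was not tested. The difference between the fractions in this ratio was not tested. For the counts of mmu-miR-384-5p, the genotype difference in microglia minus that in astrocytes was −2.93 on the log2 scale (edgeR adjusted p 0.257) and did not pass. In 10 of 51 pairs of a ratio and a fraction WT and KIN did not overlap.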

How the results depend on the processing

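The call of all 5 members as lower in neurons than in glia held in both genotypes under DESeq2, library totals, no filter, a stricter filter, a fit of all 18 libraries and the replicate block, and 0 members passed when the TMM factors were taken from mature miRNA (WT and KIN neurons against astrocytes and against microglia). Between KIN and WT astrocytes 1 member passed without a filter and 1 with the replicate block (where all 5 had an adjusted p under the limit, 0.00454 to 0.0105), and 0 to 4 passed when each library was left out in turn. Between KIN microglia and KIN astrocytes 4 passed on the adjusted p alone and 1 with library totals. The cause was not tested. Same-numbered libraries deviated together only in the 2 pairs of WT groups given in the methods, where the replicate block changed no member's call, and in the other pairs of groups at least 1 correlation was under 0.1. The mice were littermate pairs, but no source used here ties the numbers to them, so the block may not follow the pairs. Features called ranged from 159 to 1338 over the alternatives and from 41 to 1527 without 1 library between KIN and WT astrocytes, the latter without WT replicate 2, from 49 to 426 and 0 to 940 in microglia, and from 0 to 75 and 0 to 52 in neurons. They ranged from 1237 to 2289 between WT microglia and WT astrocytes, 1293 to 3104 and 1070 to 3178 for WT neurons against astrocytes and microglia, and 1010 to 1964, 1493 to 4266 and 1517 to 3940 for the same 3 pairs in KIN. For the differences in genotype effect they ranged from 0 to 108, 0 to 4 and 41 to 183.

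The log2 fold changes that turned sign were all of values that had not passed, except those under scaling by mature miRNA in the neuronal comparisons. With TMM from mature miRNA, KIN versus WT microglia gave −0.12 for mmu-miR-30a-5p, −0.046 for mmu-miR-30b-5p and −0.29 for mmu-miR-30c-5p. WT microglia versus WT astrocytes gave 0.11 for mmu-miR-30b-5p, 0.089 for mmu-miR-30c-5p and 0.13 for mmu-miR-30e-5p. WT neurons gave 0.40 for mmu-miR-30c-5p and 0.033 for mmu-miR-30e-5p against astrocytes, and 0.33 for mmu-miR-30c-5p against microglia. In KIN, mmu-miR-30e-5p gave 0.035 between microglia and astrocytes, neurons gave 0.28 for mmu-miR-30c-5p and 0.10 for mmu-miR-30e-5p against astrocytes, and 0.51 for mmu-miR-30c-5p against microglia. The genotype difference in microglia minus that in astrocytes gave 0.048 for mmu-miR-30d-5p and 0.059 for mmu-miR-30e-5p, neurons minus astrocytes 0.0033 for mmu-miR-30d-5p and 0.11 for mmu-miR-30e-5p, and neurons minus microglia 0.048, 0.31, 0.41 and 0.056 for mmu-miR-30a-5p, mmu-miR-30b-5p, mmu-miR-30c-5p and mmu-miR-30e-5p. This scaling moved the median of all features between KIN and WT astrocytes from −0.19 to −0.87, and between WT neurons and WT astrocytes from −0.50 to 1.79. With library totals mmu-miR-30c-5p gave −0.11 between KIN and WT microglia and 0.011 for neurons minus microglia. With the stricter filter KIN versus WT gave −0.012 for mmu-miR-30c-5p in microglia and −0.031 for mmu-miR-30b-5p in neurons, and neurons minus microglia 0.038 for mmu-miR-30b-5p and 0.11 for mmu-miR-30c-5p. Between KIN and WT neurons, mmu-miR-30c-5p and mmu-miR-30d-5p gave 0.044 and 0.14 without a filter, 0.0080 and 0.098 in a fit of all 18 libraries, and 0.087 and 0.014 with the replicate block. Neurons minus microglia gave 0.0060 for mmu-miR-30b-5p and 0.036 for mmu-miR-30c-5p without a filter, and 0.098 for mmu-miR-30c-5p with the replicate block.

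Leaving out 1 library gave log2 fold changes between KIN and WT of −0.13 to 0.21 for mmu-miR-30c-5p in microglia, and in neurons of −0.47 to 0.20, −0.21 to 0.60, −0.43 to 0.57, −0.25 to 0.23 and −0.14 to 0.57 for mmu-miR-30a-5p to mmu-miR-30e-5p in order. Between WT microglia and WT astrocytes it gave −0.55 to 0.35 for mmu-miR-30a-5p, −0.41 to 0.49 for mmu-miR-30b-5p, −0.34 to 0.41 for mmu-miR-30c-5p and −0.34 to 0.45 for mmu-miR-30e-5p. For microglia minus astrocytes it gave −0.54 to 0.14 for mmu-miR-30d-5p and −0.58 to 0.23 for mmu-miR-30e-5p, and for neurons minus microglia −0.70 to 0.35 for mmu-miR-30b-5p and −0.68 to 0.57 for mmu-miR-30c-5p. In microglia, mmu-miR-30d-5p and mmu-miR-30e-5p had an adjusted p under the limit without KIN replicate 1, and mmu-miR-30e-5p without WT replicate 2, all below the required size. Depth limits the neuronal libraries most, where the family had 643 counts in 1 library.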
